A study of Mus musculus with 6 samples.

Results

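Intermediate filaments are the rope-like polymers of the cytoskeleton and the nuclear lamina, and 10 of their genes were followed here among 55298 gene identifiers. They were taken by name as the glial, nuclear and neuronal filament genes: Gfap, Vim, Nes and Synm, then Lmna and Lmnb1, then Nefl, Nefm, Nefh and Ina. Each name matched 1 identifier, all 10 passed the filter on low values, and the rule that lists them uses no measured value. The cells were captured from mouse brain with magnetic beads against O4, a surface antigen of the oligodendrocyte lineage, and were not cultured. The labelled cell type is oligodendrocytes. EAE mice (strain given as c56Bl/6j) received MOG 35-55, a peptide of a myelin protein, which induces experimental autoimmune encephalomyelitis, a paralytic autoimmune disease of the brain and spinal cord. OVA mice of that strain received ovalbumin, a protein foreign to the brain, and both groups were killed at the peak of disease. The EAE group holds 3 samples, each a pool of RNA from 2 mice, and the OVA group holds 3 samples, of which 1 pools 2 mice and the others come from 1 mouse each. Replicate numbers only name the samples. No age, sex or batch is given in the labels.

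Intermediate filament proteins share a central coiled-coil rod, through which they pair and assemble into filaments without the polarity of actin or microtubules. Which proteins a cell builds marks its kind: GFAP and vimentin fill astrocytes, nestin marks progenitors and young vessels, neurofilament proteins set the calibre of axons, and lamins line the inner nuclear membrane of nearly all cells. In brain inflammation astrocytes enlarge and build more GFAP and vimentin, and neurofilament light chain escapes from damaged axons into body fluids. Mature oligodendrocytes are known for holding few or no cytoplasmic intermediate filaments.

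Gfap is the gene whose transcript rose, and its start site region is shown with that of Vim, its partner in astrocyte filaments, to set the sequence before the values. The RefSeq promoter table (GRCm38.p6) covered Vim, Nes, Lmna, Synm, Gfap and Ina, with 250 bases before and 50 after an annotated start. For Gfap and Vim that start lies inside the gene interval given further below, not at its outer end, so the windows show 1 annotated start only. Capitals mark TTCNNNGAA, the core that STAT factors bind, searched on both strands.
Gfap, chr11:102897151-102897450, minus strand: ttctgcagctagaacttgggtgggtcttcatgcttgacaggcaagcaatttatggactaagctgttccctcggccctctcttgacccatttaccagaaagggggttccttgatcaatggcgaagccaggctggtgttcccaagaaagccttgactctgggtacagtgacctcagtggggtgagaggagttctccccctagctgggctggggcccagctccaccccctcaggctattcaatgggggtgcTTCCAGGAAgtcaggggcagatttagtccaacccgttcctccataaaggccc
Vim, chr2:13574061-13574360, plus strand: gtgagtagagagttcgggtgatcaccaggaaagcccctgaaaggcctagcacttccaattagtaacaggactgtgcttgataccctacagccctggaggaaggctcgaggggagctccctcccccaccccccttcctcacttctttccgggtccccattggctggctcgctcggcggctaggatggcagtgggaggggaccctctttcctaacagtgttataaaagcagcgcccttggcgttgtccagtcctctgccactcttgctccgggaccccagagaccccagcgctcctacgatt
The Gfap window held 1 match, TTCCAGGAA, at bases 249 to 257 of the 300. None of the windows of the other 5 covered genes held it, against 8.3% of all 32851 RefSeq promoter windows. TGANTCA, the core bound by AP-1 factors, was found in 7.81% of all windows and among the covered genes in 1 of the 2 Lmna windows alone. A match in these letters is a description of the sequence, not a measured binding site.

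Gfap rose in EAE, and it was the only 1 of the 10 genes that did. By limma with Benjamini-Hochberg adjustment over 18161 tested genes, 1 filament gene was higher and 0 were lower, where 1.72% of all tested genes were higher, 0.666% lower and 2.38% either. Vim came next, with an unadjusted p of 0.0544. Of the 10 differences 8 were positive, as were 49.3% of those of all tested genes, and the median was 0.26 on the log2 scale, beside -0.002 over all tested genes. The groups did not overlap for Gfap, with every EAE sample above every OVA sample as in 12.1% of tested genes, nor for Synm, with every EAE sample below as in 10.8%; in either direction this held for 22.8% of tested genes. The filament genes varied more between samples than most: their median SD was 0.23 within EAE and 0.38 within OVA, against 0.08 within EAE and 0.14 within OVA over all tested genes.

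**Figure D1:**
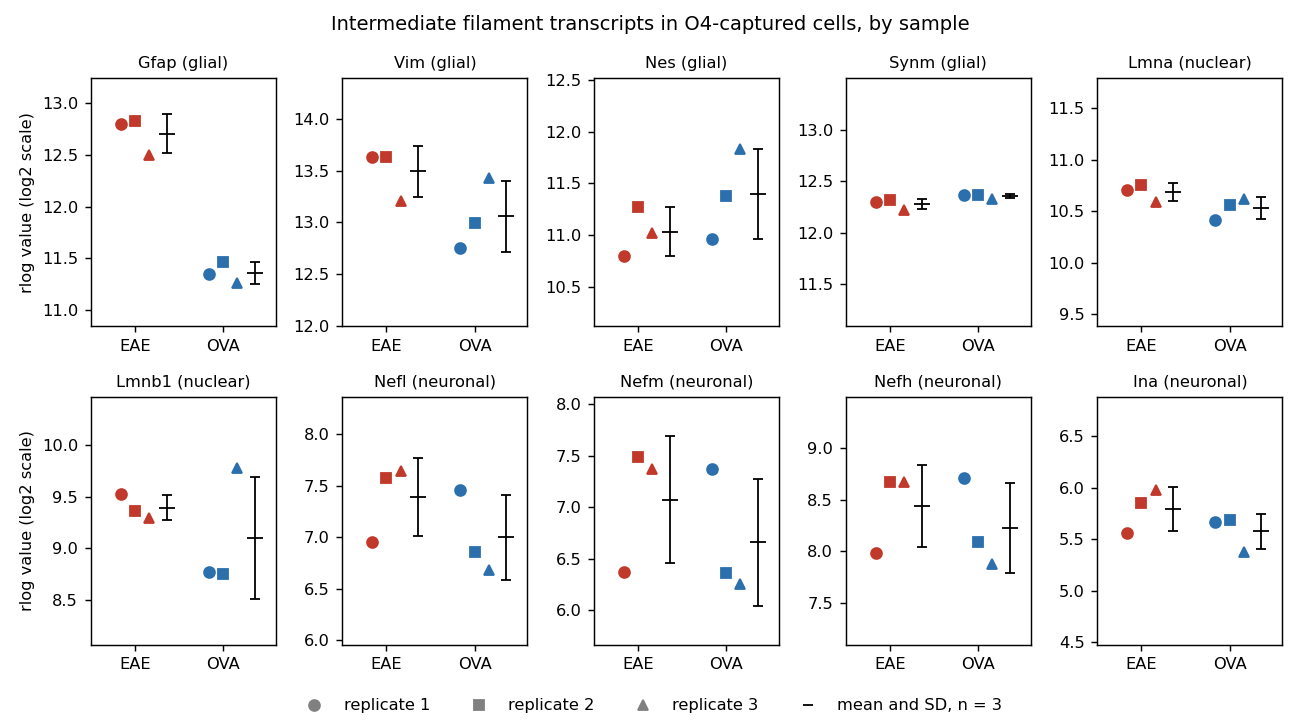
Regularised log (rlog) value, on a log2 scale, of each filament gene in 3 EAE and 3 OVA samples. Points are samples and the bar is the mean with its SD; every panel spans the same height, so that the separation of Gfap (EAE 12.50 to 12.83, OVA 11.26 to 11.47) can be set against the overlap of Vim and of the neurofilament genes.

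Some facts of the preparations bear on all values. The 11 markers of myelinating oligodendrocytes, Mbp and Mog among them, were all detected, with a mean over the list of 15.24 to 15.38 in EAE and 14.73 to 15.19 in OVA, and 0 of them passed the test. Markers of astrocytes, vessels, ependyma, microglia and blood-borne leukocytes were present in every sample too, so each filament value is a sum over cell types. In such a bulk sample, fewer cells of a type and less RNA per cell cannot be told apart. OVA replicate 3 stood apart from the other OVA samples: it had the highest endothelial mean of all samples (13.01) and the highest mean of dividing cell markers (8.18). Without OVA replicate 3, 850 of all tested genes were higher and 346 lower, against 312 and 121 with all samples. List counts without that sample are to be read beside those numbers. Sex-linked genes moved with the groups. Xist, which silences an X chromosome in female cells, lay between 13.51 and 14.16 in EAE and between 7.39 and 7.63 in OVA. Kdm5d, Uty and Ddx3y of the Y chromosome were lower in EAE, with every EAE pool below every OVA sample. Ddx3y stood at 10.18, 10.17 and 9.44 in EAE, against 11.46, 11.38 and 11.29 in OVA. Without EAE replicate 2, OVA replicate 1 or OVA replicate 2, 0 Y-linked genes passed the threshold, while Xist did. The sex makeup of the pools and the immunisation cannot be told apart.

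Gfap (ENSMUSG00000020932.14, GRCm38 chromosome 11, 102887336 to 102900912, minus strand) encodes the main filament protein of astrocytes. It stood at 12.80, 12.83 and 12.50 in the EAE pools, against 11.35, 11.47 and 11.26 in the OVA samples. The lowest EAE pool exceeded the highest OVA sample by 1.03, and the samples within each group lay within 0.33 of each other. The mean was 12.71 ± 0.18 in EAE and 11.36 ± 0.11 in OVA (SD, n = 3 each), a rise of 1.35 ± 0.11 (SE) on the log2 scale or 2.55-fold, with a 95% interval of 1.10 to 1.61 (limma adjusted p = 0.00446). Among all tested genes 0.611% had a larger absolute difference. With any 1 sample left out the rise was 1.29 to 1.46, with an adjusted p of at most 0.036.

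The other astrocyte genes did not follow Gfap. All 14 further astrocyte markers had negative differences (median -0.82), and 6 of them fell while 0 rose. Slc4a4, a sodium bicarbonate cotransporter, fell by 1.14 ± 0.15 (SE), Slc1a2, the main glutamate transporter, by 0.94 ± 0.18, and Gja1, the main astrocyte connexin, by 0.91 ± 0.09. Their adjusted p by limma were 0.0137, 0.0404 and 0.00725. Sox9, a transcription factor of astrocytes, differed by -0.08 and Glul, glutamine synthetase, by -0.09, with adjusted p of 0.679 and 0.857. Within each sample, Gfap minus the mean of the 14 markers was 0.01, 0.38 and -0.15 in EAE, against -2.21, -1.78 and -1.92 in OVA. Every EAE pool lay above every OVA sample in this measure, a shift of 2.05 on the log2 scale. The exact two-sided permutation test gave p = 0.1, the smallest that 3 samples against 3 allow. The number of fallen markers was 2, 0 and 3 without EAE replicates 1, 2 and 3 and 2, 1 and 9 without OVA replicates 1, 2 and 3, and 1 of the 14 differences was above 0 with array weights and 1 without OVA replicate 2.

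**Figure D2:**
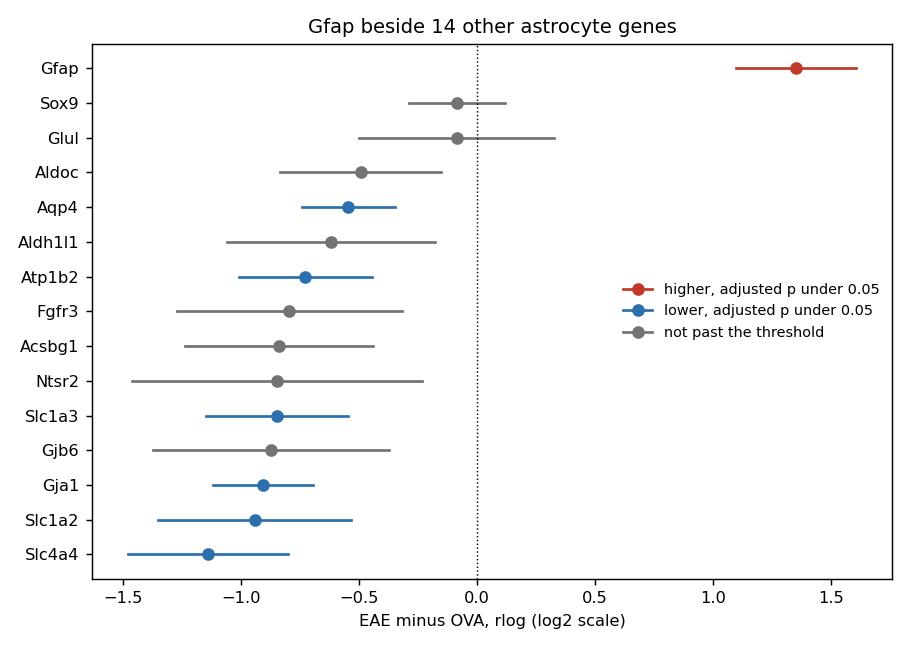
EAE minus OVA difference with its 95% interval (limma, log2 scale) of Gfap and of 14 other astrocyte genes. Gfap lies at 1.35 and the others between -1.14 and -0.08, and 6 of the 14 passed the threshold as lower.

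Genes known from reactive astrocytes gave a mixed picture. Of 12 such genes, Gfap and Vim not counted, 3 rose and 0 fell, with 9 positive and 3 negative differences and a median of 0.45. Serpina3n, a secreted protease inhibitor, rose by 3.39 ± 0.33 (SE), the chemokine Cxcl10 by 2.87 ± 0.24 and the transcription factor Stat3 by 0.53 ± 0.10 (limma adjusted p = 0.0067, 0.00446 and 0.0381). Each of them is also made by cells other than astrocytes. Among positive differences that did not pass, the largest were those of Cd44 at 0.98 and Socs3 at 0.915 (limma adjusted p = 0.163 and 0.0531). For Socs3 every EAE pool was above every OVA sample. The negative differences were those of Lcn2, Cp and Osmr, and none of them passed. Lcn2, an iron-trafficking protein often used as a mark of reactive astrocytes, stood at 11.37, 11.78 and 10.35 in EAE, against 11.93, 12.49 and 12.93 in OVA. Every EAE pool was below every OVA sample, with a difference of -1.28 ± 0.38 (SE; limma adjusted p = 0.145). Cp, ceruloplasmin, differed by -0.43 and Osmr, the oncostatin M receptor, by -0.40, with adjusted p of 0.328 and 0.36. The number of genes that rose was 2, 1 and 4 without EAE replicates 1, 2 and 3, and 2, 2 and 6 without OVA replicates 1, 2 and 3. Of 15313 named genes, those whose profile over the 6 samples lay nearest to that of Gfap, by root mean square distance after centring each gene, were Egr2 (0.10), Ccl22 (0.11) and Ikbke (0.13). Egr2 is an immediate early transcription factor, Ccl22 a chemokine and Ikbke a kinase of innate immune signalling. Of the 12 marker list means compared, that of T cell markers was nearest to Gfap, at a distance of 0.41 and a Pearson r of 0.95 over the 6 samples. That of monocyte and macrophage markers was next, at 0.51 and 0.88. Since the samples share the 2 groups, such an r holds the group difference and does not by itself show likeness from sample to sample. These leukocyte lists, whose values follow with Vim, were higher in EAE as Gfap was, and their part in the Gfap values was not tested.

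Vim (ENSMUSG00000026728.9, chromosome 2, 13573927 to 13582826, plus strand) encodes vimentin, which copolymerises with GFAP in reactive astrocytes and is also the filament protein of leukocytes, vessel cells and ependyma. Its value was 13.64, 13.64 and 13.21 in EAE, against 12.76, 12.99 and 13.43 in OVA. EAE replicate 3 lay under OVA replicate 3, so the groups overlapped. The means were 13.50 ± 0.24 in EAE and 13.06 ± 0.34 in OVA (SD, n = 3 each), a difference of 0.43 ± 0.19 (SE) with a 95% interval of -0.01 to 0.88 (limma adjusted p = 0.32). Without OVA replicate 3 the difference was 0.62 and passed the threshold (adjusted p = 0.0458), and with any other sample left out it did not. Within each sample, Gfap minus Vim was -0.84, -0.81 and -0.72 in EAE, against -1.41, -1.52 and -2.18 in OVA. The shift of 0.92 between the groups, which do not overlap in this measure, had an exact two-sided permutation p of 0.1, the smallest possible. That test could not pass 0.05, so the shift is given as a value only. Without OVA replicate 3 it was 0.68. Gfap minus each of the other filament genes also had separate groups, so the separation is not particular to Vim.

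Several marker lists moved with Vim too, and their part in its values was not tested. The list mean nearest to the Vim profile, picked after the values were seen, was that of 8 ependymal markers, at a root mean square distance of 0.12. It was 10.21, 10.26 and 10.15 in EAE, against 9.47, 9.80 and 10.09 in OVA. Of these markers 0 passed the test and 8 had a positive difference. Without OVA replicate 3, 6 rose, in a fit where 850 of all tested genes were higher. Foxj1, the master factor of motile cilia, differed by 0.57 (adjusted p = 0.0625) and the ciliary gene Ccdc153 by 0.50 (0.125). Monocyte and macrophage markers had a list mean of 10.54 to 11.25 in EAE and 8.72 to 9.93 in OVA, with OVA replicate 3 highest in OVA, and 4 of 12 rose, Arg1, Gpnmb and F10 the most. That count was 3, 1 and 4 without EAE replicates 1, 2 and 3 and 2, 1 and 11 without OVA replicates 1, 2 and 3. T cell markers had a list mean of 5.78 to 5.91 in EAE and 5.18 to 5.35 in OVA, and 5 of 10 rose, a count that lay between 1 without EAE replicate 2 or OVA replicate 2 and 8 without OVA replicate 3, with 2 without EAE replicate 3 or OVA replicate 1 and 3 without EAE replicate 1. The genes nearest to Vim were C5ar1, the complement C5a receptor of myeloid cells, at 0.04, the calcium-binding S100a6 at 0.05 and the adaptor Sdcbp at 0.06.

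Nes (ENSMUSG00000004891.16, chromosome 3, 87971078 to 87980451, plus strand) encodes nestin, a filament protein of neural progenitors, some reactive astrocytes, and vessel wall cells. Its value was 10.80, 11.27 and 11.02 in EAE, against 10.97, 11.38 and 11.84 in OVA. EAE replicate 2 lay above OVA replicate 1, so the groups overlapped. The means were 11.03 ± 0.24 in EAE and 11.39 ± 0.44 in OVA (SD, n = 3 each), a difference of -0.36 ± 0.22 (SE) with a 95% interval of -0.87 to 0.14 (limma adjusted p = 0.456). Without OVA replicate 3 the difference was -0.14. The order of the samples was close to that of vessel genes. The mean of 9 pericyte and smooth muscle markers was 10.65, 11.09 and 10.68 in EAE, against 10.83, 11.14 and 11.57 in OVA, at a root mean square distance of 0.07 from the Nes profile. The mean of 12 endothelial markers was 11.82, 12.34 and 11.96 in EAE, against 12.21, 12.50 and 13.01 in OVA, at a distance of 0.10. All 9 and all 12 had negative differences, with medians of -0.37 and -0.55, and 0 of either list passed the test. The smallest p were those of Pdgfrb at -0.43 and Abcc9 at -0.53 for pericytes, and Vwf at -0.56 and Slco1a4 at -0.66 for endothelium. These lists were picked as nearest after the values were seen, and their part in the Nes values was not tested.

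Synm (ENSMUSG00000030554.16, chromosome 7, 67730160 to 67759742, minus strand) encodes synemin, a large filament protein that bridges vimentin-type filaments to membrane and cytoskeletal partners. It barely varied: 12.30, 12.32 and 12.22 in EAE, against 12.36, 12.37 and 12.33 in OVA. The highest EAE pool was 0.02 under the lowest OVA sample, and under quantile normalization the groups overlapped. The difference was -0.08 ± 0.07 (SE), with a 95% interval of -0.23 to 0.08 (limma adjusted p = 0.624). Of the 10 filament genes it had the smallest spread over all 6 samples, with an SD of 0.05 beside 0.75 for Gfap. In 84 of its exonic bases Synm overlaps Ttc23, and in 426 it overlaps Gm45102, both on the opposite strand.

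**Figure D3:**
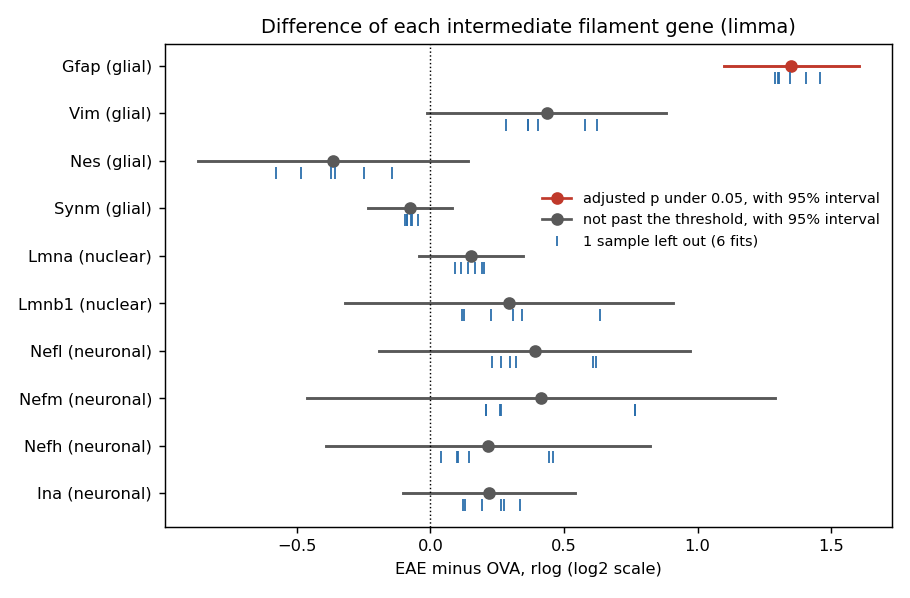
EAE minus OVA difference of each filament gene (dot) with its 95% interval (line), on the log2 scale; ticks below each line are the 6 fits that leave out 1 sample. The interval of Gfap, 1.10 to 1.61, lies apart from 0, and those of the other genes include 0.

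Neither nuclear lamin passed the test. Lmna (ENSMUSG00000028063.15, chromosome 3, 88480147 to 88509956, minus strand) encodes lamins A and C, which stiffen the nuclei of differentiated cells. It stood at 10.71, 10.76 and 10.59 in EAE, against 10.42, 10.56 and 10.62 in OVA. The groups overlapped by 0.03, since EAE replicate 3 lay just under OVA replicate 3. The difference was 0.15 ± 0.08 (SE), with a 95% interval of -0.04 to 0.34 (limma adjusted p = 0.42). Lmna followed Vim from sample to sample, with a Pearson r of 0.96 over the 6 samples, which share the 2 groups.

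Lmnb1 (ENSMUSG00000024590.8, chromosome 18, 56707813 to 56753424, plus strand) encodes lamin B1, a farnesylated lamin held at the nuclear membrane and abundant in dividing cells. Its value was 9.53, 9.36 and 9.29 in EAE, against 8.77, 8.75 and 9.78 in OVA. The EAE pools lay close together, and OVA replicate 3 lay above all of them while the other OVA samples lay below. The means were 9.39 ± 0.12 in EAE and 9.10 ± 0.59 in OVA (SD, n = 3 each), a difference of 0.29 ± 0.26 (SE) with a 95% interval of -0.32 to 0.91 (limma adjusted p = 0.626). Without OVA replicate 3 the difference was 0.63 and passed the threshold (adjusted p = 0.013), and with another sample left out it was 0.12 to 0.34 and did not.

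Lmnb1 and the mean of the dividing cell markers, the nearest list mean and picked after the values were seen, were high in the same samples. The mean of 12 markers of dividing cells was 7.49, 7.46 and 7.42 in EAE, against 6.95, 6.98 and 8.18 in OVA, at a root mean square distance of 0.13 from the Lmnb1 profile. Mki67, the proliferation antigen Ki-67, stood at 9.47, 9.51 and 9.29 in EAE, against 8.09, 8.23 and 10.81 in OVA, and Top2a, the topoisomerase that untangles replicated chromosomes, at 8.55, 8.60 and 8.67 in EAE, against 7.46, 7.46 and 9.96 in OVA. Not every marker had this pattern: Pcna in OVA replicate 3, at 10.39, lay below all EAE pools, at 10.54, 10.44 and 10.425. Of the 12 markers 0 passed the test, and 3 rose without OVA replicate 3. The smallest p were those of Pcna (difference 0.18, limma adjusted p = 0.33) and Cdk1 (0.28, limma adjusted p = 0.704). What sets OVA replicate 3 apart was not tested.

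**Figure D4:**
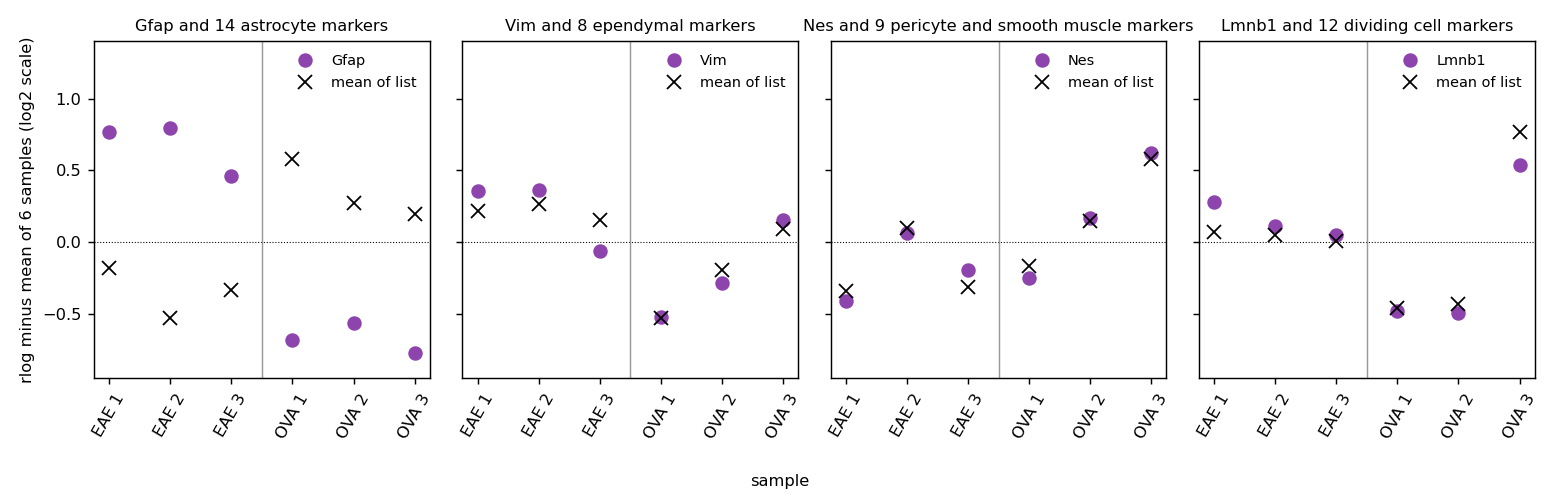
Values of 4 filament genes (purple) and the mean of a marker list (crosses) in each sample, each minus its own mean over 6 samples, on the log2 scale. Gfap and the mean of the astrocyte markers lie on opposite sides of 0 in every sample. Nes stays close to the pericyte and smooth muscle mean, and Lmnb1 shares its high OVA replicate 3 with the dividing cell mean.

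Nefl, Nefm and Nefh, 3 of the 4 neuronal filament genes, were high in samples of both groups. Nefl, Nefm and Nefh encode the light, medium and heavy neurofilament chains, of which the light chain forms the core and the others carry long side arms. Ina encodes alpha-internexin, a further axonal subunit of the central nervous system. Nefl (ENSMUSG00000022055.7, chromosome 14, 68083863 to 68089095, plus strand) stood at 6.96, 7.57 and 7.64 in EAE, against 7.46, 6.86 and 6.68 in OVA. Nefm (ENSMUSG00000022054.11, chromosome 14, 68082590 to 68124846, minus strand) stood at 6.37, 7.48 and 7.37 in EAE, against 7.37, 6.36 and 6.25 in OVA. Nefh (ENSMUSG00000020396.8, chromosome 11, 4938754 to 4948064, minus strand) stood at 7.98, 8.68 and 8.67 in EAE, against 8.71, 8.09 and 7.88 in OVA. In each of these 3 genes EAE replicates 2 and 3 and OVA replicate 1 were high, and EAE replicate 1 and OVA replicates 2 and 3 were low, with a range within each group of 0.69 to 1.11.

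None of the neuronal filament genes passed the test. The difference was 0.39 ± 0.25 (SE) for Nefl, 0.41 ± 0.38 for Nefm and 0.22 ± 0.26 for Nefh, with limma adjusted p of 0.483, 0.631 and 0.73. The 95% interval for Nefl was -0.19 to 0.97. Ina (ENSMUSG00000034336.3, chromosome 19, 47014698 to 47025327, plus strand), the lowest of the 10, stood at 5.56, 5.85 and 5.98 in EAE, against 5.67, 5.68 and 5.38 in OVA, a difference of 0.22 ± 0.14 (adjusted p = 0.476).

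The 3 neurofilament chains moved almost as one over the samples. The Pearson r over the 6 samples was 0.98 for Nefl with Nefm, 0.97 for Nefl with Nefh and 0.99 for Nefm with Nefh, and Ina reached 0.86 with Nefl. Within a sample, Nefl minus Nefh was -1.05 ± 0.05 in EAE and -1.23 ± 0.03 in OVA (SD, n = 3 each), so the offset varied little within a group, while each gene ranged over at least 0.69 there. Between the groups the offset shifted by 0.17 without overlap, a shift that was not tested. Nefl and Nefm share 1108 exonic bases on opposite strands, of 3380 in Nefl and 5782 in Nefm, and Ina shares 456 with Nt5c2. The library kit keeps strand, but the sources used here do not give whether the counting used it, so reads of such overlaps may be shared. Nefh has no annotated overlap with another gene, and the same 3 samples were high in it, though their order differed from that in Nefl.

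Other neuronal genes varied among themselves. The mean of 16 neuronal markers was 7.79, 7.95 and 8.06 in EAE, against 7.92, 7.88 and 7.68 in OVA, with EAE replicate 3 highest and OVA replicate 3 lowest. Of the marker list means compared, it was the nearest to each neuronal filament gene. Its root mean square distance was 0.275 for Nefl, 0.45 for Nefm, 0.261 for Nefh and 0.08 for Ina. The Pearson r, in the same order, was 0.9, 0.82, 0.86 and 0.98. For Nefl the myelinating oligodendrocyte mean lay almost as near, at 0.285. The part of neuronal content in these values was not tested. Of these markers 0 passed the test, with a median difference of 0.08 and the smallest p for Tubb3, neuronal tubulin (0.79, adjusted p = 0.148), and the kinase Camk2a (0.51, adjusted p = 0.249). Snap25, a synaptic vesicle fusion protein, varied more within each group than Nefl, with an SD of 0.52 in EAE and 0.68 in OVA, at 7.97, 8.81 and 8.94 in EAE, against 9.03, 8.30 and 7.67 in OVA. Nefl minus the mean of the 16 markers was -0.83, -0.38 and -0.41 in EAE, against -0.457, -1.015 and -1.003 in OVA. That measure overlapped between the groups (exact two-sided permutation p = 0.2). The genes nearest to Nefl were Nefh (0.09), Cplx1, a complexin of synaptic release (0.11), and Eef1a2, the elongation factor of neurons and muscle (0.11).

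**Figure D5:**
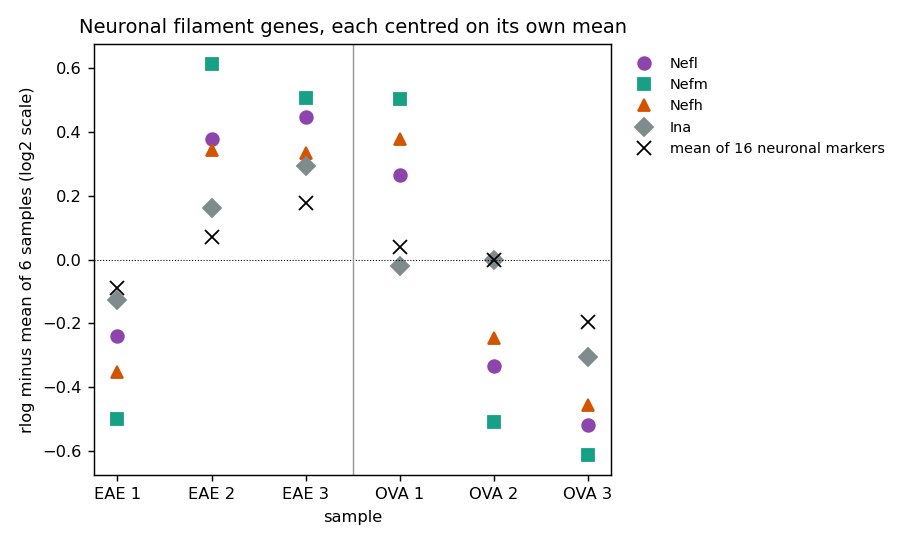
Values of the neuronal filament genes and the mean of 16 neuronal markers in each sample, each minus its own mean over 6 samples, on the log2 scale. Nefl, Nefm and Nefh are above 0 in EAE replicates 2 and 3 and OVA replicate 1 and below 0 in the other samples; the marker mean averages 16 genes, so its spread cannot be set against that of single genes.

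Levels can be compared only roughly between genes by dividing by exonic length. That length counts all annotated exons, whether or not these cells use them, and the shrinkage by the transform was not measured. Reads of the bases that Nefl and Nefm share may also be shared, so the order of close genes is not settled. As rlog minus log2 of the exonic length in kilobases, Vim was highest, at 11.25 ± 0.24 in EAE and 10.81 ± 0.34 in OVA (SD, n = 3 each). Gfap was second in EAE, at 10.63 ± 0.18. In OVA it was 9.28 ± 0.11 and came after Synm, which it overlapped, at 9.37 ± 0.02. Synm in EAE was 9.29 ± 0.05, under every EAE value of Gfap. Nes followed at 8.35 ± 0.24 in EAE and 8.71 ± 0.44 in OVA, then Lmna at 8.14 ± 0.09 in EAE and 7.99 ± 0.10 in OVA and Lmnb1 at 7.83 ± 0.12 in EAE and 7.53 ± 0.59 in OVA. Nes and Lmna overlapped in EAE, and Lmna and Lmnb1 in OVA. The neuronal genes came last, with Nefh at 6.44 ± 0.40 in EAE and 6.23 ± 0.43 in OVA, Nefl at 5.63 ± 0.38 in EAE and 5.24 ± 0.41 in OVA, Nefm at 4.54 ± 0.61 in EAE and 4.13 ± 0.62 in OVA, and Ina at 4.10 ± 0.21 in EAE and 3.88 ± 0.17 in OVA. Nefm and Ina overlapped in both groups.

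Among other filament genes and the proteins that hold filaments in place, 1 gene passed the test. Of 36 further intermediate filament genes 16 passed the filter on low values and 0 passed the test, with differences of -0.15 to 0.27 and a median of 0.04. The smallest p were those of Krt7 (-0.12, adjusted p = 0.356) and Krt15 (0.27, adjusted p = 0.375), keratins of epithelia. The partner keratins Krt8 and Krt18 tracked each other over the samples, with Krt8 at 7.66, 7.94 and 7.64 in EAE, against 7.06, 7.49 and 8.15 in OVA, and Krt18 at 8.38, 8.81 and 8.73 in EAE, against 7.97, 8.52 and 9.15 in OVA. Of 14 cytoplasmic linkers and partners 1 fell and 0 rose. It was Hspb1, a small heat shock protein that binds filaments, at 10.36, 10.64 and 10.36 in EAE, against 11.04, 11.18 and 11.11 in OVA, and it fell by 0.65 ± 0.10 (SE; limma adjusted p = 0.0204). That count was 2 without OVA replicate 3 and 0 with any other sample left out. Macf1, a large linker of actin and microtubules, had every EAE sample below every OVA sample without passing the threshold, at 14.84, 14.83 and 14.86 in EAE, against 15.39, 15.22 and 15.26 in OVA (difference -0.45 ± 0.11, adjusted p = 0.0912). Plec, the plectin that ties filaments to other structures, differed by -0.03 (adjusted p = 0.941). Of 18 lamina partners and lamin-processing genes 0 passed the test. The smallest p was that of Syne1, nesprin-1 of the outer nuclear membrane, at -0.36 (adjusted p = 0.0979), followed by Syne2 at -0.27 (0.401).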

How the data were processed

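TruSeq Stranded mRNA libraries were made from RNA of O4-captured brain cells, as the labels' protocols state. Without giving roles, the submitters' processing notes list STAR 2.6.1c, Subread 1.6.1, DESeq2 1.24.0, bcl2fastq 2.17, cutadapt 1.18 and the build GRCm38. The deposited table holds 1 log2 value per gene and sample, by its name and values the regularised log (rlog) of size-scaled counts, a transform built to shrink weak genes; how far it did so here was not measured. It gives no counts, so the depth is unknown and no counting interval can be given. P-values measure the spread between these samples, pools of 2 mice and single mice alike.

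Of 55298 identifiers 99.7% matched GENCODE M21 (GRCm38, 1-based) without the version suffix. Genes at 0 in every sample (25244) or with a mean rlog under 3 were left out. EAE was compared with OVA by two-sided moderated tests (limma 3.58.1, R 4.3.3, variance trend on intensity), Benjamini-Hochberg adjusted over all tested genes, threshold 0.05. SE is that of the difference, SD that over samples. Exonic length is the union of annotated exons. The fit was also run on simulated normal values in which each gene had the same spread in every sample. In these data the median SD was 0.077 in EAE and 0.138 in OVA, so that run cannot speak to unequal spread. Protein sequences, planned for comparison, were not analysed here, and 1 oligodendrocyte marker is not reported here.

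The genes and lists were chosen with earlier results of these data known. Named were all 10 filament genes, per list the 3 largest past the threshold or the 2 of smallest p, and the 3 nearest genes to Gfap, Vim and Nefl. Sox9, Glul, Snap25, Mki67, Top2a, Krt8, Krt18, Plec, Macf1, Lcn2, Cp, Osmr, Cd44, Socs3 and Pdgfra were picked after their values were seen. Alternatives were other filters, scalings, variance models, array weights and each sample left out.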

Additional observations from a re-analysis of the deposited data

How the results depend on the processing

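No paired analysis was possible because the replicate numbers follow the order of deposit and pair no samples. All 10 filament genes kept the sign of their difference under 13 alternatives, and Gfap passed the threshold in all 13. With 1 sample left out in turn, the number of filament genes higher in EAE was 1 to 3 and lower 0. Among all tested genes 24 (without EAE replicate 2) to 850 (without OVA replicate 3) were higher in these fits. Those lower numbered 1 to 346, against 312 higher and 121 lower with all samples. Filament genes whose groups did not overlap numbered 2 to 5, but fewer samples overlap less. The share over all tested genes was not computed for these fits, so that count cannot be set against it. Gfap minus Vim shifted by 0.68 to 1.06, Gfap minus the astrocyte mean by 1.90 to 2.16 and Nefl minus the neuronal mean by 0.19 to 0.47; with the median of the markers the last was 0.10. With limma's array weights, which gave OVA replicate 2 a weight of 8.85 and the others at most 1.55 and did not fully converge, 4 filament genes were higher (Gfap, Vim, Lmnb1 and Nefl), as were 2858 of all tested genes, with 2233 lower. Quantile normalization left 1 filament gene with separate groups, again with no share over all tested genes computed. The cause of these changes was not tested. With 3 samples a group, precision is limited: the 95% interval of Nefm, -0.46 to 1.29, holds a difference as large as that of Gfap's lower bound.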

Other observations

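Microglia and oligodendrocyte precursors, whose genes were also followed beside the filaments, gave these values. Of 10 microglia markers all had negative differences, with a median of -0.58, and P2ry12, the ADP receptor of resting microglia, and Fcrls fell, by 1.02 and 0.89 (log2; adjusted p by limma 0.0344 and 0.0256). That count became 4 on leaving out EAE replicate 3, 3 on leaving out OVA replicate 3, and 0 on leaving out any other sample. Of 10 precursor markers 6 had positive and 4 negative differences, with a median of 0.15, so the list did not move 1 way. None of them rose and 2 fell, the phosphatase Ptprz1 by 0.63 and Tmem100 by 0.50 (limma adjusted p = 0.0485 and 0.0275). That count of 2 was 1 under median centring, with no filter, with no intensity trend and with the robust variance model. It stayed 2 with the higher filter, quantile normalization and array weights, and was 0 with any sample but OVA replicate 3 left out. Pdgfra differed by 0.38 the other way, with every EAE sample above every OVA sample (limma adjusted p = 0.204). Of 8 fibroblast markers 0 passed the test, with a median difference of -0.07 and the smallest p for Igfbp6 (-0.29, adjusted p = 0.382) and Col1a1 (-0.25, adjusted p = 0.447).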
